A study of Mus musculus with 16 samples.

Results

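The genes described here write, copy, read and remove DNA methylation. They are Dnmt1, Dnmt3a, Dnmt3b, Dnmt3l, Uhrf1, Tet1, Tet2, Tet3, Mbd2 and Tdg, 10 genes chosen by name, among 37149 genes tested on the arrays. For 9 of the 10, a target named on the array could be matched to the gene. None could be for Tet1, which was not analysed here. Each of the 9 was represented by its brightest probe. Of the 37149 genes tested, 20122 had a symbol, and every unmatched target name counted as a gene of its own. Shares of all genes given below are over this whole set. By mean log2 level the 9 genes lay between its 55.2 and 96.6 percentiles, so that the set holds many dimmer targets.

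Expression was measured with single-colour Agilent arrays in mouse embryonic stem (ES) cells differentiated to blood in culture. Wild-type cells (Sp1+/+, named E14 in the labels) were compared with Sp1-/- knock-out cells, a single mutant line whose altered Sp1 gene encodes a truncated protein without its DNA-binding domain. The labels give the strain C57BL/6 for both genotypes and name no other allele or agent. In each genotype RNA came from 4 populations. Flk1+ cells (Flk+ in the labels) were selected from embryoid bodies and contain the precursors of blood, endothelium and heart. The other 3 were sorted from blast cultures started with Flk1+ cells. They were hemogenic endothelium I (HE1, KIT+ Tie2+ CD41-), hemogenic endothelium II (HE2, KIT+ Tie2+ CD41+) and floating progenitors (KIT+ Tie2- CD41+). Each of the 8 combinations was measured on 2 arrays, 16 in all, which limits how precise any comparison here can be. The series design calls the replicates independent biological replicates, whereas a supplementary legend of the study speaks of technical replicates, so that p-values measure only the spread between these arrays. One slide carried the Sp1+/+ arrays and a second slide the Sp1-/- arrays, so that genotype and slide cannot be told apart. Population steps within a genotype were measured within 1 slide.

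DNA methyltransferases place a methyl group on cytosine, mostly where it is followed by guanine. Dnmt1 copies an existing pattern onto newly made DNA and is brought there by Uhrf1, which recognises DNA methylated on 1 strand. Dnmt3a and Dnmt3b set new marks, and Dnmt3l is a catalytically inactive partner that stimulates them. The Tet enzymes oxidise methylcytosine with the use of iron and 2-oxoglutarate. Tdg cuts out the most oxidised bases, after which base excision repair restores an unmethylated cytosine. Mbd2 binds methylated DNA and recruits a repressor complex that removes histone acetylation. In blood, Dnmt3a and Tet2 are known as genes that restrain stem cell self-renewal and are often mutated in clonal and malignant myeloid disease, and Dnmt3b is known for its high level in pluripotent and early embryonic cells.

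Sp1 binds GC boxes, of which GGGCGG is the core, and the 250 bases before the outermost RefSeq start of 4 of the genes are given to show where those letters lie. Dnmt3a, Dnmt3b and Tet3 are the genes that differed most between the genotypes in progenitors. Uhrf1, on its brightest probe, differed in 1 direction in every population. Sequences are from RefSeq (GRCm38.p6), on the strand of the gene, 5′ to 3′, and capitals mark GGGCGG or its complement CCGCCC. The windows are chr12:3806730-3806979 on the plus strand for Dnmt3a, chr2:153649199-153649448 on the plus strand for Dnmt3b, chr6:83441679-83441928 on the minus strand for Tet3 and chr17:56303087-56303336 on the plus strand for Uhrf1.
Dnmt3a: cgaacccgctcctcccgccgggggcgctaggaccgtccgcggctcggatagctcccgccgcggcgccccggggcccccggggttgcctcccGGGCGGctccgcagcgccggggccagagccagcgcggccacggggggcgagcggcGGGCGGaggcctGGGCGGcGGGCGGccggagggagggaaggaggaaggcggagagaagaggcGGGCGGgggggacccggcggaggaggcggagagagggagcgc
Dnmt3b: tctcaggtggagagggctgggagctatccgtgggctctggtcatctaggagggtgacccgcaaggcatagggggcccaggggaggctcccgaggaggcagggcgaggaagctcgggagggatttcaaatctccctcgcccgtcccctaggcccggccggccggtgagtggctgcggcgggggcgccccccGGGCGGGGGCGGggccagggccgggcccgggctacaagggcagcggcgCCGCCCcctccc
Tet3: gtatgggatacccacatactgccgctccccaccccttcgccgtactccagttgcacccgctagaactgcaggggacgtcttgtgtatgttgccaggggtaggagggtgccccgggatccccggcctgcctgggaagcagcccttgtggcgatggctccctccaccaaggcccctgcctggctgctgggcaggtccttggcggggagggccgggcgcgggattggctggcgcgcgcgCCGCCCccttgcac
Uhrf1: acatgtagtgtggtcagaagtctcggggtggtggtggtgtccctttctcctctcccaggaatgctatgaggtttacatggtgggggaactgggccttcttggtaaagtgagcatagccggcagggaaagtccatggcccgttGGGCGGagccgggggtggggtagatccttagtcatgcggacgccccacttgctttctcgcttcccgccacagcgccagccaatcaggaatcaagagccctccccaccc
The motif was found 5 times before this start of Dnmt3a, 3 times before that of Dnmt3b and 1 time each before those of Tet3 and Uhrf1. A further start of Uhrf1 had 3 matches in its window, and the other starts of Dnmt3a had 4 (in a window that overlaps the one shown) and 1. Tet1 and Tet2 had 1 match each, Tdg had none, Mbd2 was not searched, and Dnmt1 and Dnmt3l each had 2 matches at 1 of their 3 starts and none at the others. Among 32841 windows of the same length before all annotated starts, 32.7% held the motif on either strand, with a median of 2 matches where any was found. The windows shown for Dnmt3a, Dnmt3b, Tet3 and Uhrf1 were 82.4%, 75.2%, 69.6% and 59.6% G or C. The median over all starts was 52.4%, and the share was not adjusted for this, so that no enrichment of the motif can be read from it. A match describes only the letters. The study mapped Sp1 binding by chromatin immunoprecipitation and sequencing in wild-type Flk1+ cells and progenitors. Those data were not used here, so that whether Sp1 occupied any of these windows was not tested in this report.

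Dnmt3a and Dnmt3b, which set new methylation marks, differed between the genotypes in progenitors and in no earlier population at the threshold used, which was an unadjusted p of 0.01 or less in a limma model over all genes together with a change of at least 2-fold. Dnmt3a was 2.08-fold lower and Dnmt3b 2.22-fold lower in Sp1-/- than in Sp1+/+ progenitors, whereas the brightest probe of the demethylating enzyme Tet3 was 2-fold higher. Of 36 tests of the Sp1-/- minus Sp1+/+ difference (the Sp1 effect), these 3 passed, where 4.12% of all genes were called in progenitors. Dnmt1, Dnmt3l, Uhrf1, Tet2, Mbd2 and Tdg passed in no population. With an adjusted p of 0.05 or less (Benjamini-Hochberg, over all genes tested) and no minimum fold, 6 of the 36 passed. The share of all genes passing that rule was 6.98% for Flk1+ cells, 9.84% for HE1, 5.68% for HE2 and 13.1% for progenitors.

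The targeted gene was checked first. Sp1 read between 12.14 and 12.56 on the log2 scale on the 8 Sp1+/+ arrays and between 9.03 and 10.29 on the 8 Sp1-/- arrays, and where its probe lies relative to the altered part of the gene is not given in the sources used here. All 9 methylation genes were well above background on all 16 arrays, and no spot was saturated. Between 67.0% and 77.1% of the spots of an array were well above background. The populations were checked against 6 Flk1+, 7 hemogenic endothelium and 7 progenitor markers. T, Mesp1 and Mixl1 were well above background on all Flk1+ arrays and on none of the HE2 or progenitor arrays, the mean level of the hemogenic endothelium markers was highest in HE1, and that of the progenitor markers was highest in progenitors, in each genotype. Kdr, which encodes Flk1, had group means between 13.67 and 14.87 over the populations of both genotypes.

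**Figure D1:**
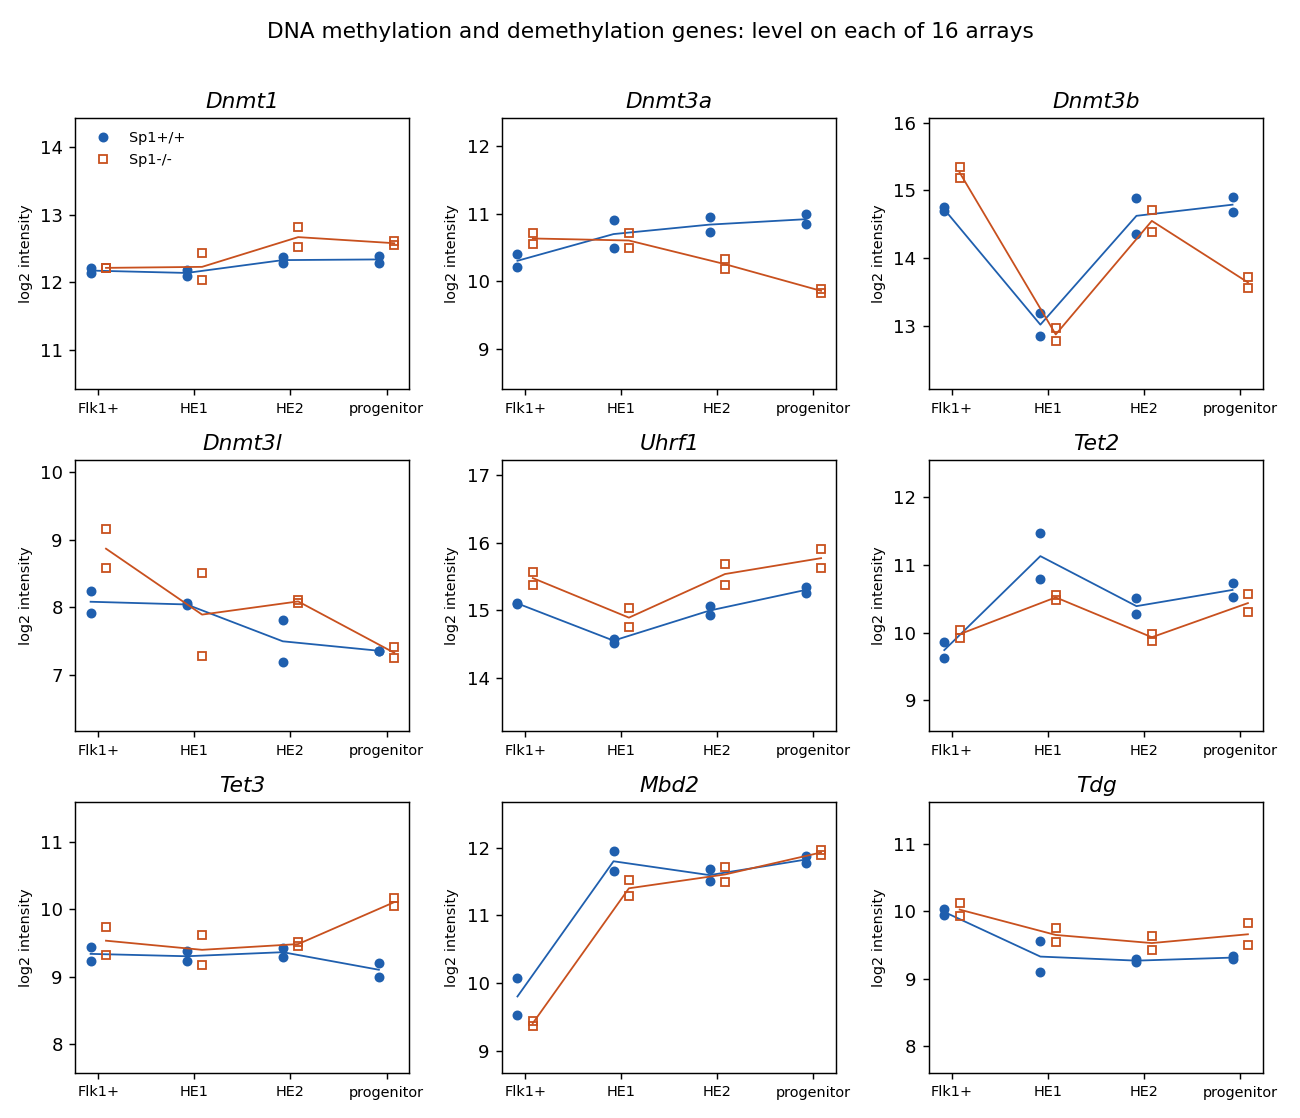
Level of each gene (vertical axis, log2 intensity of its brightest probe) in the 4 populations (horizontal axis) on each of the 16 arrays. Filled circles are Sp1+/+ arrays, open squares are Sp1-/- arrays, lines join the means of 2 arrays, and all panels span the same range of log2 units. In progenitors the Sp1-/- arrays lie below the Sp1+/+ arrays for Dnmt3a and Dnmt3b and above them for Tet3, and in HE1 the Dnmt3b arrays of both genotypes lie below all other arrays of their genotype.

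Among the maintenance genes, the brightest probe of Uhrf1 was somewhat higher in Sp1-/- cells of every population, by less than 2-fold. Its log2 level in Sp1+/+ cells was 15.09 and 15.11 in Flk1+ cells, 14.52 and 14.58 in HE1, 14.93 and 15.06 in HE2 and finally 15.26 and 15.34 in progenitors. Among Sp1-/- arrays it read 15.38 and 15.57 in Flk1+ cells, 14.75 and 15.03 in HE1, 15.38 and 15.69 in HE2 and finally 15.63 and 15.91 in progenitors. Both Sp1-/- arrays were thus above both Sp1+/+ arrays in each of the 4 populations, a pattern found in 4.43% of all genes tested and picked out here after the values were seen. Arrays of the genotypes did not overlap for 51.6% of all genes in Flk1+ cells, for 45% in HE1, for 45.4% in HE2 and for 62.5% in progenitors. The Sp1 effect was 0.38, 0.34, 0.54 and 0.47 (log2, SE 0.14, n = 2 against 2 arrays) in the order of the populations. The adjusted p in the limma model was 0.143, 0.154, 0.0443 and 0.0454. Averaged over the populations the effect was 0.43 (SE 0.07), below 2-fold, with an adjusted p of 0.000865, where 26.2% of all genes had an adjusted p of 0.05 or less and 1.3% were called at 2-fold. By that averaged effect 4 of the 9 genes had an adjusted p of 0.05 or less (Uhrf1, Dnmt3a, Tet3 and Tdg), and none was called. For Tet3 and Tdg this held for the brightest probe but not for the second, which gave averaged effects of 0.14 for Tet3 (adjusted p = 0.45 in the limma model) and -0.06 for Tdg (adjusted p = 0.614). The dimmer probe of Uhrf1 gave 0.32, 0.07, 0.30 and 0.41 in the 4 populations. On that probe the HE1 arrays overlapped, at 8.82 and 8.82 in Sp1+/+ and 8.76 and 9.01 in Sp1-/- cells. The lack of overlap in all 4 populations thus held on the brighter probe only.

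Dnmt1 passed for no Sp1 effect and no population step. Its log2 level lay between 12.09 and 12.39 on the 8 Sp1+/+ arrays and between 12.03 and 12.82 on the 8 Sp1-/- arrays. The largest Sp1 effect was 0.34 (log2, SE 0.13, 95% interval 0.05 to 0.63) in HE2, where the Sp1-/- arrays read 12.52 and 12.82 and the Sp1+/+ arrays 12.38 and 12.28. It did not pass (adjusted p = 0.197 in the limma model). In progenitors the Sp1-/- arrays were also above the Sp1+/+ arrays (12.55 and 12.61 against 12.29 and 12.39), with an effect of 0.24 and a 95% interval of -0.05 to 0.53. The genotypes did not overlap for 45.4% of all genes in HE2 and for 62.5% in progenitors.

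Dnmt3a had opposite orders of levels in the genotypes. In Sp1+/+ cells its log2 level was 10.21 and 10.40 in Flk1+ cells, 10.91 and 10.49 in HE1, 10.95 and 10.73 in HE2 and finally 10.99 and 10.85 in progenitors. Sp1-/- cells gave 10.72 and 10.55 in Flk1+ cells, 10.49 and 10.72 in HE1, 10.33 and 10.18 in HE2 and finally 9.83 and 9.89 in progenitors. The Sp1+/+ means were ordered from Flk1+ cells to progenitors and the Sp1-/- means in the reverse order. No 2 neighbours in either order differed at an adjusted p of 0.05, the lowest being 0.0807. From Flk1+ cells to progenitors the change was 0.62 in Sp1+/+ cells (SE 0.15, adjusted p = 0.011 in the limma model) and -0.78 in Sp1-/- cells (adjusted p = 0.0018). Both were below the 2-fold threshold.

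The Sp1 effect on Dnmt3a was 0.33 in Flk1+ cells, then -0.10 in HE1, -0.59 in HE2 and finally -1.06 in progenitors (log2, SE 0.15). The adjusted p in HE2 was 0.0444 and that in progenitors 0.000822. The effect in progenitors had a 95% interval of -1.39 to -0.73, and 2.61% of all genes were called lower there and 1.51% higher. The effect in progenitors was lower by 1.39 than the effect in Flk1+ cells (SE 0.21, adjusted p = 0.00438 for this difference in the limma model), and 3.83% of all genes passed for that difference in either direction. The corresponding difference for HE2 was -0.92 (adjusted p = 0.0745). Without the first Sp1+/+ progenitor array, the effect in progenitors was -0.99 and fell short of 2-fold. Dnmt3a has 1 probe, so that no second probe bears on it.

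Dnmt3b had the widest swings of the methyltransferases. Its log2 level in Sp1+/+ cells was 14.75 and 14.69 in Flk1+ cells, 13.19 and 12.84 in HE1, 14.89 and 14.36 in HE2 and finally 14.90 and 14.68 in progenitors. In Sp1-/- cells it was 15.35 and 15.18 in Flk1+ cells, 12.78 and 12.96 in HE1, 14.39 and 14.71 in HE2 and finally 13.56 and 13.72 in progenitors. It was lowest in HE1 in both genotypes. It fell from Flk1+ cells to HE1 by 1.71 in Sp1+/+ cells (3.26-fold, SE 0.18, adjusted p = 4.34e-05 in the limma model) and by 2.40 in Sp1-/- cells (5.26-fold, adjusted p = 3.63e-06). In the same steps 3.9% and 4.9% of all genes were called lower. From HE1 to HE2 it rose by 1.61 in Sp1+/+ cells (adjusted p = 0.000493) and by 1.68 in Sp1-/- cells (adjusted p = 0.000141), where 1.08% and 2.09% of all genes were called higher. These steps share the HE1 arrays.

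For Dnmt3b the step from HE2 to progenitors was tested within each genotype, and its difference between the genotypes was not tested. The change of Dnmt3b from HE2 to progenitors was 0.17 in Sp1+/+ cells (adjusted p = 0.813 in the limma model) and -0.91 in Sp1-/- cells (SE 0.18, adjusted p = 0.00704, below 2-fold). On the brightest probe all neighbours in the order of levels in Sp1-/- cells differed at an adjusted p of 0.05. That order was HE1, progenitors, HE2 and Flk1+ cells, from low to high. On the second brightest probe the Sp1-/- HE1 arrays (11.82 and 12.37) overlapped the Sp1-/- progenitor arrays (12.33 and 12.48). In Sp1+/+ cells the arrays of HE2, Flk1+ cells and progenitors overlapped, and only HE1 was apart. The Sp1 effect was 0.55 in Flk1+ cells, then -0.15 in HE1, -0.08 in HE2 and finally -1.15 in progenitors (SE 0.18, 95% interval in progenitors -1.56 to -0.74, adjusted p = 0.00186 there). The effect in progenitors differed from that in Flk1+ cells by -1.70 (SE 0.26, adjusted p = 0.00462).

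Dnmt3b has 3 probes, and all showed the difference in progenitors, but by different amounts. The second brightest read 13.33 and 13.03 in Sp1+/+ and 12.33 and 12.48 in Sp1-/- progenitors, an effect of -0.78 (adjusted p = 0.02 in the limma model). The third read 12.82 and 12.54 against 11.61 and 11.88, an effect of -0.94 (adjusted p = 0.00361). The genotypes did not overlap on any of the 3 probes, but only the brightest passed the 2-fold threshold. In progenitors the genotypes did not overlap for 62.5% of all genes, and the 3 probes read the same RNA samples. From Flk1+ cells to progenitors all 3 probes fell in Sp1-/- cells, by between 1.45 and 1.63, and they changed by between -0.16 and 0.07 in Sp1+/+ cells.

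Dnmt3l had the largest error of the 9 genes. In Sp1+/+ cells its log2 level was 8.25 and 7.92 in Flk1+ cells, 8.06 and 8.03 in HE1, 7.81 and 7.19 in HE2 and finally 7.36 and 7.36 in progenitors. The knock-out arrays read 9.16 and 8.58 in Flk1+ cells, 8.51 and 7.28 in HE1, 8.11 and 8.07 in HE2 and finally 7.41 and 7.25 in progenitors. The Sp1-/- HE1 arrays thus lay 1 above and 1 below the Sp1+/+ HE1 arrays. In Sp1-/- cells it fell by 1.54 from Flk1+ cells to progenitors (SE 0.34, adjusted p = 0.00415 in the limma model), where 6.61% of all genes were called lower. Without the first Sp1-/- Flk1+ array the change was -1.25 and no longer passed. In Sp1+/+ cells the change was -0.73 (adjusted p = 0.18), and the difference between the genotypes in this change was -0.82 (adjusted p = 0.424).

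**Figure D2:**
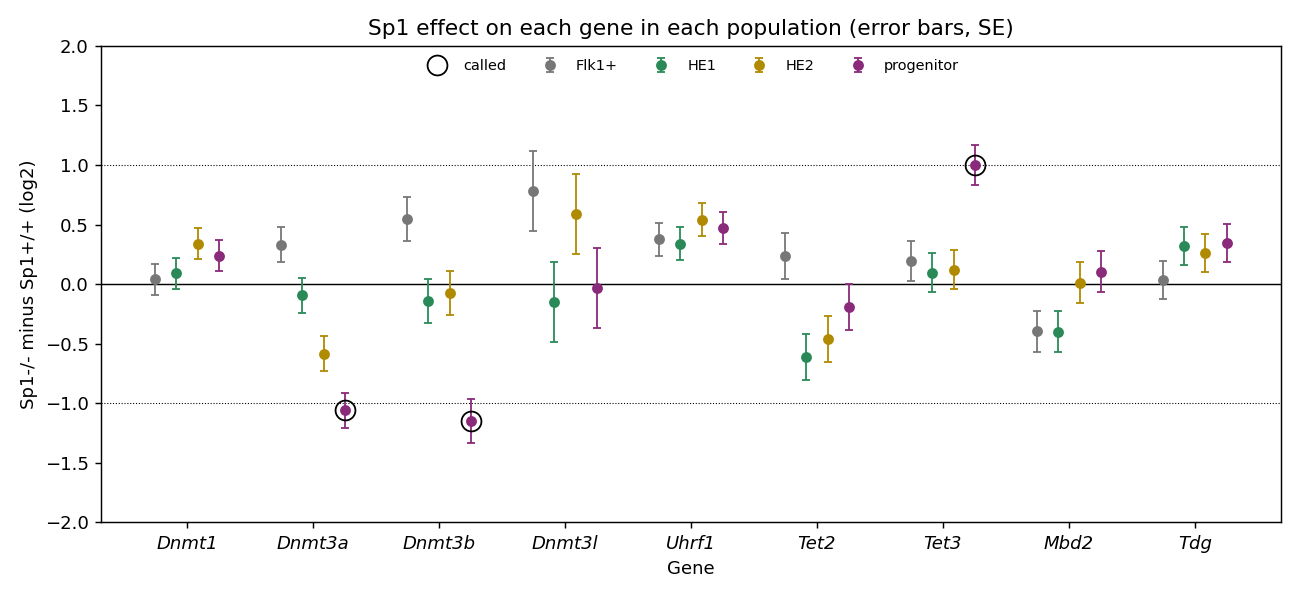
Sp1 effect (vertical axis, Sp1-/- minus Sp1+/+, log2) on each of the 9 genes (horizontal axis) in each population. Points are differences of the means of 2 arrays, bars are the SE from the limma model, dotted lines mark a 2-fold change and black rings mark the 3 effects that passed the threshold. All 3 are in progenitors, at -1.06 for Dnmt3a, -1.15 for Dnmt3b and 1.00 for Tet3.

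Of the Tet genes, Tet2 rose on entry into HE1 in Sp1+/+ cells. Its log2 level there was 9.62 and 9.86 in Flk1+ cells, 11.47 and 10.79 in HE1, 10.27 and 10.51 in HE2 and finally 10.73 and 10.53 in progenitors. The Sp1-/- levels were 9.92 and 10.03 in Flk1+ cells, 10.48 and 10.56 in HE1, 9.98 and 9.88 in HE2 and finally 10.30 and 10.57 in progenitors. The mean was highest in HE1 in both genotypes, but in Sp1-/- cells the HE1 and progenitor arrays overlapped and their means differed by 0.09 (adjusted p = 0.797 in the limma model). Tet2 rose from Flk1+ cells to HE1 by 1.39 in Sp1+/+ cells (2.62-fold, SE 0.19, adjusted p = 0.00026 in the limma model), where 4.66% of all genes were called higher. In Sp1-/- cells the same change was 0.55 (adjusted p = 0.0564).

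In HE1 both Sp1-/- arrays of Tet2 lay below both Sp1+/+ arrays, where the genotypes did not overlap for 45% of all genes. The effect was -0.61 (SE 0.19, 95% interval -1.03 to -0.19, adjusted p = 0.0737 in the limma model) and did not pass. The second probe of Tet2 gave -0.85 in HE1 (adjusted p = 0.0284), and on the brighter probe the effect in HE1 differed from that in Flk1+ cells by -0.85 (adjusted p = 0.21). Without the second Sp1+/+ HE1 array this difference was -1.19 (adjusted p = 0.0434). The value thus depends on which Sp1+/+ HE1 array is kept. In HE2 the effect was -0.46 (adjusted p = 0.237) and in progenitors -0.20 (adjusted p = 0.59).

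Tet3 was level until the progenitor stage on its brightest probe. Its log2 level in Sp1+/+ cells was 9.44 and 9.24 in Flk1+ cells, 9.38 and 9.23 in HE1, 9.43 and 9.30 in HE2 and finally 9.00 and 9.21 in progenitors. In Sp1-/- cells it was 9.74 and 9.33 in Flk1+ cells, 9.62 and 9.18 in HE1, 9.51 and 9.46 in HE2 and finally 10.16 and 10.05 in progenitors. The effect in progenitors was exactly at the threshold, 1.00 (SE 0.16, 95% interval 0.64 to 1.36, adjusted p = 0.00225 in the limma model). It fell below 2-fold without the first Sp1+/+ progenitor array (0.90) or without the first Sp1-/- progenitor array (0.95). On this probe the effect was between 0.10 and 0.20 in the other populations. The effect in progenitors exceeded that in Flk1+ cells by 0.80 (adjusted p = 0.0794 in the limma model).

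The other probes of Tet3 gave a weaker effect in progenitors. The second read 7.77 and 7.92 in Sp1+/+ and 8.15 and 8.20 in Sp1-/- progenitors, a difference of 0.33 (adjusted p = 0.441 in the limma model). The third read 7.41 and 7.42 against 7.93 and 7.84, a difference of 0.47 (adjusted p = 0.0324). Sp1-/- arrays were above Sp1+/+ arrays in progenitors on all 3 probes, and the 2-fold change was seen on the brightest alone. The 3 probes read the same RNA samples, and the genotypes did not overlap for 62.5% of all genes there. The probes also disagreed on the differentiation itself. From Flk1+ cells to progenitors the dimmer probes read 0.57 and 0.29 in Sp1+/+ cells, where the brightest read -0.24, and 1.20 and 0.95 in Sp1-/- cells, where it read 0.57. Which transcripts each probe detects was not tested.

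**Figure D3:**
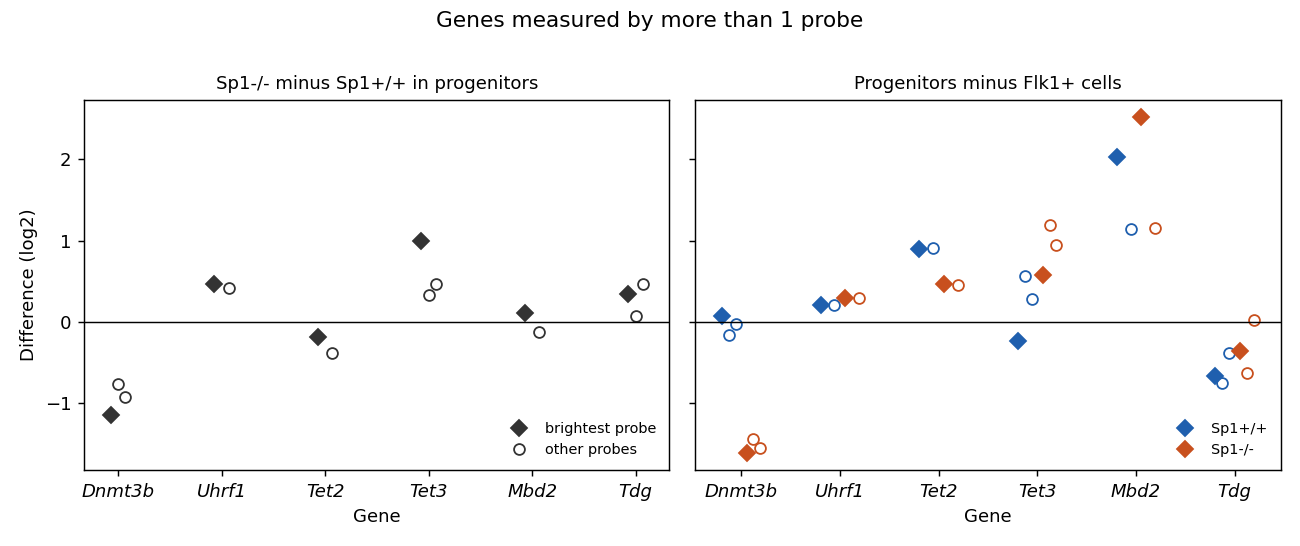
Differences (vertical axis, log2) on every probe of the 6 genes with more than 1 probe (horizontal axis). On the left is the Sp1 effect in progenitors, and on the right the change from Flk1+ cells to progenitors in Sp1+/+ (blue) and Sp1-/- cells (orange), with diamonds for the brightest probe and open circles for the others. The probes of Dnmt3b lie between -1.15 and -0.78 on the left, those of Tet3 between 0.33 and 1.00, and on the right the brightest Mbd2 probe lies above the dimmer one in both genotypes.

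The methylation reader Mbd2 had the largest rise among the 72 population steps of these genes. Its log2 level in Sp1+/+ cells was 9.52 and 10.08 in Flk1+ cells, 11.65 and 11.95 in HE1, 11.51 and 11.68 in HE2 and finally 11.77 and 11.88 in progenitors. Sp1-/- cells gave 9.37 and 9.44 in Flk1+ cells, 11.52 and 11.28 in HE1, 11.50 and 11.71 in HE2 and finally 11.89 and 11.97 in progenitors. All Flk1+ arrays were below all others. From Flk1+ cells to HE1 Mbd2 rose by 2.00 in each genotype (SE 0.17, adjusted p = 9.17e-06 in Sp1+/+ and 8.22e-06 in Sp1-/- cells in the limma model), where 4.66% and 4.63% of all genes were called higher. From Flk1+ cells to progenitors it rose by 2.03 (4.07-fold) and 2.53 (5.76-fold), and 4.32% and 5.71% of all genes were called higher.

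Among HE1, HE2 and progenitors, no neighbours in the order of Mbd2 levels differed at an adjusted p of 0.05. In Sp1-/- cells, however, progenitors were 0.53 above HE1 (adjusted p = 0.035 in the limma model). The same difference was 0.025 in Sp1+/+ cells (adjusted p = 0.957). The second probe of Mbd2 rose less, by 1.14 in Sp1+/+ and 1.15 in Sp1-/- cells from Flk1+ cells to progenitors. Between Flk1+ cells and HE1 that probe read 0.93 and 0.60 higher and did not reach 2-fold. The Sp1 effect on Mbd2 was -0.40 in Flk1+ cells and in HE1, 0.01 in HE2 and finally 0.11 in progenitors, and none passed. The 95% interval in progenitors was -0.28 to 0.49.

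The brightest probe of Tdg was highest in Flk1+ cells. Its log2 level in Sp1+/+ cells was 9.95 and 10.03 there, 9.56 and 9.10 in HE1, 9.29 and 9.25 in HE2 and finally 9.34 and 9.29 in progenitors. For Sp1-/- cells the values were 9.93 and 10.12 in Flk1+ cells, 9.54 and 9.76 in HE1, 9.63 and 9.43 in HE2 and finally 9.82 and 9.50 in progenitors. The change from Flk1+ cells to HE1 was -0.66 in Sp1+/+ cells (SE 0.16, adjusted p = 0.0091 in the limma model) and -0.38 in Sp1-/- cells (adjusted p = 0.105). Neither reached 2-fold. In Sp1+/+ cells the second probe of Tdg gave -0.87 for this step (adjusted p = 0.000913) and the third only -0.12 (adjusted p = 0.655). The Sp1-/- arrays were above the Sp1+/+ arrays in HE2 and in progenitors, with effects of 0.26 and 0.35 that did not pass (adjusted p = 0.45 and 0.199). Arrays of the genotypes did not overlap for 45.4% of all genes in HE2 and for 62.5% in progenitors. The second probe of Tdg gave -0.14 and 0.07 in these populations, and the third gave 0.24 and 0.47.

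Over the 9 genes, the Sp1 effect was above 0 for 8 in Flk1+ cells, then 4 in HE1, 6 in HE2 and finally 5 in progenitors. Its median was 0.24 in Flk1+ cells, then -0.10 in HE1, 0.12 in HE2 and finally 0.11 in progenitors, beside medians of 0.01 to 0.02 over all genes. The share called was 3 of 9 in progenitors, where 4.12% of all genes were called, and 0 of 9 in Flk1+ cells, HE1 and HE2, where 1.66%, 2.11% and 1.96% were. Along the differentiation 11 of 72 steps passed, 5 of them in Sp1+/+ and 6 in Sp1-/- cells. They belonged to Dnmt3b, Mbd2, Tet2 and Dnmt3l. In Sp1+/+ cells 8.56% of all genes were called between Flk1+ cells and HE1, 3.32% between HE1 and HE2, and 8.6% between Flk1+ cells and progenitors, and in Sp1-/- cells 9.53%, 5.62% and 12.3%. For the difference of an effect from that in Flk1+ cells, 2 of 27 passed, both in progenitors. The share of all genes that passed was 3.83% for progenitors, 1.6% for HE1 and 1.67% for HE2. None of the 9 genes passed between HE2 and progenitors in either genotype, where 1.75% and 5.01% of all genes did. All these comparisons draw on the same 16 arrays, and those of neighbouring steps share a population.

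Markers of other cell states also differed between the genotypes, in progenitors and in the earlier populations. Of 7 hemogenic endothelium markers, all had lower means in Sp1-/- progenitors and 3 passed the threshold, with effects of -2.40 for Cdh5 (an endothelial junction protein), -1.76 for Eng and -1.23 for Kit, the receptor used in the sort. The mean log2 level of the 7 was 9.49 and 10.62 on the Sp1+/+ progenitor arrays and 8.49 and 8.77 on the Sp1-/- ones, and Sox17 was not well above background on either Sp1-/- array. Of 4 epithelial markers 3 were called lower, among them the keratins Krt8 (-4.40) and Krt18 (-3.47), and the mean level of the 4 was 10.45 and 10.62 against 8.17 and 8.26. Of 10 pluripotency markers, Dppa4 (-1.70) and Dppa5a (-1.60) were called lower in Sp1-/- progenitors. Of 7 progenitor markers, Ptprc, the leukocyte antigen CD45, was called higher (1.28), and the list level was 11.89 and 12.09 against 12.32 and 12.49. Effects of the 7 were above 0 for 5, with a median of 0.38, and the lowest was that of Myb (-1.04, not called). In Flk1+ cells, 1 of 6 markers of that population, Lhx1, was called higher in Sp1-/- cells (2.19), and the median over the 6 was 0.55. The epithelial cadherin Cdh1 (2.16) and the pluripotency gene Esrrb (1.52) were also called higher there, and Dppa5a (-1.5) lower. Of 3 cardiac markers, Myl7 was called higher (2.46) and Myh6 lower (-1.20) in Flk1+ cells, and Myl7 (1.18) and Tnnt2 (1.43) were called higher in HE1. In HE1 and in HE2, Dppa4 (-1.47 and -1.67) and Dppa5a (-1.43 and -1.45) were called lower. Of the progenitor markers, Runx1 (1.55) and Gfi1b (1.1) were called higher in HE1 and Ptprc (1.49) in HE2. The part of these differences in the results for Dnmt3a, Dnmt3b and Tet3, including those that set one population's effect against another's, was not tested, and fewer cells of a type cannot be told from less RNA per cell in RNA from pooled cells.

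Genes of DNA synthesis had their lowest levels in HE1, as Dnmt3b and Uhrf1 did. Of 14 S phase genes, all had a lower mean in HE1 than in Flk1+ cells of Sp1+/+ (13 of 14 in Sp1-/-) and all a higher mean in HE2 than in HE1 of each genotype, though only Pola1 passed, from HE1 to HE2 in Sp1-/- cells (1.05). Their median change from Flk1+ cells to HE1 was -0.43 in Sp1+/+ and -0.58 in Sp1-/- cells, beside -0.01 over all genes. The mean level of the list was 13.05 and 13.17 in Sp1+/+ HE1 and 12.73 and 12.92 in Sp1-/- HE1, and between 13.20 and 13.56 in Flk1+ cells, HE2 and progenitors of either genotype. In progenitors the list read 13.48 and 13.54 in Sp1+/+ and 13.54 and 13.55 in Sp1-/- cells, and 0 of 14 genes were called there. The part of these differences in the pattern of Dnmt3b and Uhrf1 was not tested.

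The partners of these enzymes were examined as lists. Among 10 cofactors of maintenance methylation and of its targeting, none passed for the Sp1 effect in any population (effects from -0.58 to 0.46). The highest was that of Dppa3 in Flk1+ cells, at 6.16 in Sp1+/+ and 6.615 in Sp1-/- cells. Dppa3 was well above background in Sp1-/- Flk1+ cells alone. Cdca7 and Hells, which form a chromatin remodelling complex needed for methylation, also fell in the step in which Dnmt3b fell. Cdca7 fell by 1.29 in Sp1+/+ and by 1.68 in Sp1-/- cells from Flk1+ cells to HE1, and Hells by 1.15 and 1.11. Cdca7 rose again by 1.16 from HE1 to HE2 in Sp1-/- cells. Of 8 other methyl-CpG binding proteins, none passed for the Sp1 effect. Zbtb38, a zinc finger protein of this kind, rose by 1.12 and 1.21 from Flk1+ cells to HE1, and Mbd1 rose by 1.03 from Flk1+ cells to progenitors in Sp1-/- cells.

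Of 12 genes of base excision repair and demethylation downstream of Tdg, Neil3 was lower in Sp1-/- cells at every stage. This DNA glycosylase read between 9.37 and 11.03 on the Sp1+/+ arrays and between 8.02 and 9.65 on the Sp1-/- arrays, and the genotypes overlapped in no population. Its effect was -1.49 in Flk1+ cells, then -2.17 in HE1, -1.92 in HE2 and finally -1.53 in progenitors (log2, SE 0.19, adjusted p between 8.20e-05 and 0.00114 in the limma model). Gadd45a, which encodes a stress protein proposed to bring repair enzymes to methylated sites, was called higher in Sp1-/- HE1 (1.00) and progenitors (1.21), and not in Flk1+ cells (0.08) or HE2 (0.46). The remaining 10 genes of the list passed in no population.

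Of 11 genes that supply methyl groups or 2-oxoglutarate, Idh2 alone passed for the Sp1 effect. It encodes the mitochondrial isocitrate dehydrogenase, whose product 2-oxoglutarate the Tet enzymes use. Idh2 read 15.07 and 14.72 in Sp1+/+ and 13.75 and 13.83 in Sp1-/- progenitors, an effect of -1.11 (SE 0.11, adjusted p = 7.65e-05 in the limma model). The effect was 0.34 in Flk1+ cells, and the difference between these effects was -1.45 (adjusted p = 0.000887). Shmt1 and Shmt2, which load the folate carrier with one-carbon units, fell from Flk1+ cells to HE1 in both genotypes, Shmt2 by 1.11 in Sp1+/+ and by 1.34 in Sp1-/- cells.

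**Figure D4:**
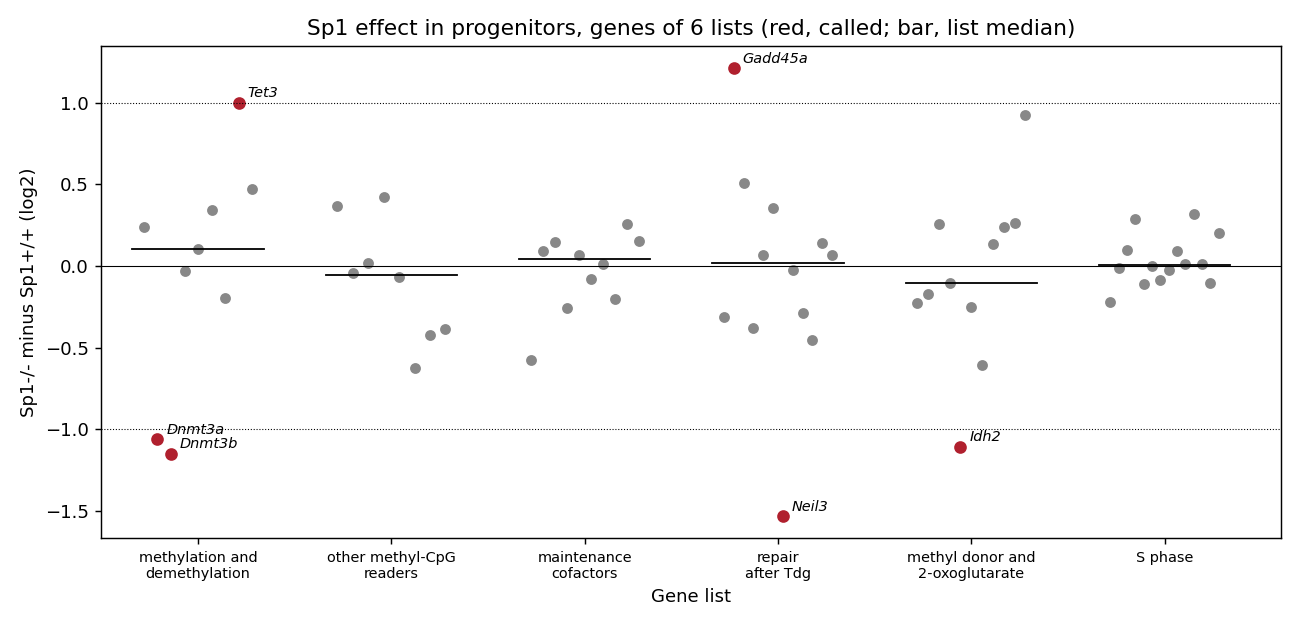
Sp1 effect in progenitors (vertical axis, Sp1-/- minus Sp1+/+, log2) for each gene of 6 lists (horizontal axis). Each point is 1 gene, named and red where it passed the threshold, bars are list medians and dotted lines mark a 2-fold change. Named points are Dnmt3a, Dnmt3b and Tet3, Neil3 and Gadd45a, and Idh2, and none of the methyl-CpG readers, maintenance cofactors or S phase genes passed.

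Genes whose levels ran most like those of the 7 members that varied by at least 1 log2 unit between groups were found over the 16 arrays among 20102 genes with a symbol. The arrays share populations and slides, so that a Pearson r here is a description. For Dnmt3a the closest was Idh2 (r = 0.85), followed by Krt19 and Cnot8. For Dnmt3b they were BC055324 (r = 0.95), Fam136a and Cdca7 (r = 0.94). For Uhrf1 they were Swi5 (r = 0.96), Mpp6 and Ccdc115, and for Mbd2 they were Rmnd5b (r = 0.99), Cd9 and Spns2. Dnmt3l was closest to Jsrp1, Tet2 to Rasgef1a and Tet3 to Tssk1, each with r between 0.91 and 0.93.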

How the data were processed

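RNA of 16 samples was hybridized to single-colour arrays. Per the labels, 25 ng of RNA was labelled with Cy3. The authors extracted features with Agilent Feature Extraction (10.7.1.1 in the submitters' processing notes, 10.7.3.1 in the file headers) and deposited scanner intensity values together with a normalized log2 table. Quantile normalization after normexp is described with an offset of 16 in the study's supplement, but the deposited log2 values were matched to within 0.0258 with an offset of 50. An offset makes changes of dim genes look smaller.

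The deposited log2 values were used. Of 62976 spots, 59305 were not controls, outlier spots (95 to 182 an array) were set to missing and repeated spots averaged. Targets were named through RefSeq (GRCm38.p6), and of 37932 names 20869 matched by accession, 6 by symbol and 6 by synonym. Probes with a log2 value of 6 or more on at least 1 array were kept, and the brightest stood for a gene. A limma model (R 4.3.3, limma 3.58.1) with 8 group means and 8 residual degrees of freedom gave all contrasts. Calls needed a change of 2-fold or more with an unadjusted p no higher than 0.01, and p was adjusted over all 37149 genes. Scripts were tested on simulated data. Intervals are 95% intervals from the model. Context lists name at most 4 called genes each, by size. The members and lists were chosen with earlier results of these data known. Alternatives were other background corrections, scaling, filters, probes, thresholds, a replicate block and leaving out each array. Whether same-numbered arrays deviate together was checked. Of 28 pairs of groups 11 correlated over 0.1, and r ran from -0.17 to 0.50. The highest r was that of Sp1+/+ HE1 with Sp1+/+ HE2. The main model did not pair arrays. Some results of the context lists are not reported here.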

Additional observations from a re-analysis of the deposited data

Results flagged for a closer look

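For Dnmt3a the Sp1 effect in progenitors was lower by 1.39 than that in Flk1+ cells (log2, value -1.39, adjusted p = 0.00438 in the limma model), and for Dnmt3b the same difference was -1.70 (adjusted p = 0.00462). These are differences between groups tested as an interaction. For both genes the Sp1-/- arrays lay above the Sp1+/+ arrays in Flk1+ cells and below them in progenitors. Arrays of the genotypes did not overlap for 51.6% of all genes in Flk1+ cells and for 62.5% in progenitors. Both genes were flagged from these same values, so that the order of the arrays adds no support. Without any 1 array the difference between the effects lay between -1.49 and -1.30 for Dnmt3a and between -1.81 and -1.59 for Dnmt3b. Both involve the same 8 arrays, and genotype and slide cannot be told apart in either.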

How the results depend on the processing

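The 144 values for the 9 genes were recomputed under 28 settings. Of the 16 called values, 10 kept their call and direction under every setting. Of the 36 Sp1 effects 3 were called. With the mean over probes 1 was called, and 1 each with the second and the third brightest probe (the last chosen after the data were seen). An adjusted p of 0.05 with no minimum fold called 6 effects, 4 instead of 0 mean effects and 24 instead of 11 steps. Of all 37149 genes, that threshold called between 2109 and 4871 for an Sp1 effect, 9744 for the mean effect and between 1128 and 12548 for a step. Leaving out each array gave 1 to 3 effects, the 1 without the first Sp1+/+ progenitor array, 0 mean effects, 10 to 12 steps and 2 to 3 interactions. The change of Tet3 from Flk1+ cells to HE1 in Sp1-/- cells was -0.14 on the brightest and 1.22 on the second probe, which read 7.73 and 8.66 on the HE1 arrays, and the cause was not tested. With an offset of 16, the Sp1 effects in progenitors kept their calls.

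A replicate block changed none of the member counts (3, 0, 11 and 2), and the replicate numbers were not taken to pair the arrays. A slide block could not be run, since each slide holds 1 genotype. Over all genes, the processed signal at the 75th percentile called 2952 genes in progenitors instead of 1530 and 2021 in HE1 instead of 784, with a shift of the median in HE1 of 0.19, and 1743 were called in HE1 without the first Sp1-/- HE1 array. Without the first Sp1+/+ Flk1+ array 936 instead of 615 were called in Flk1+ cells, and without the second Sp1+/+ progenitor array 399 instead of 651 were called between HE2 and progenitors. An adjusted p of 0.05 with 2-fold called 264 instead of 596 interactions in HE1. Where 1 array of a group was left out, the other was taken to vary like the remaining groups.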
